A study of Mus musculus with 10 samples.

Results

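The respiratory chain members described here are 42 genes, of the 55401 gene identifiers listed in each library: the 13 messenger RNAs encoded by the mitochondrial genome and 29 nuclear genes for subunits of complexes I to V and for cytochrome c. They were taken by gene symbol in the GENCODE M21 annotation of the mouse build GRCm38. The rule uses no measured value, but the group was proposed with earlier results of these data known. All 42 symbols were found. Atp5o belongs to 2 identifiers, of which ENSMUSG00000022956 was used, since the other, ENSMUSG00000116933, held 0 counts in all 10 libraries. Ndufa4, named as a complex I gene, is placed with complex IV, where its protein is now assigned.

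RNA sequencing was carried out on Neuro2a, a mouse neuroblastoma line labelled wild-type, after plasmid transfection aimed at lowering Scn9a, the gene of the pain-related sodium channel NaV1.7. There were 3 libraries of cells given dCas9-SCN9A, a Cas9 without cutting activity directed at SCN9A, and 3 of cells given dCas9-empty. The zinc-finger arm had 2 libraries of cells given ZF-SCN9A, an engineered DNA-binding protein directed at SCN9A, and 2 of cells given mCherry, which encodes a red fluorescent protein and serves here as the control. In every group the labels give 0.5 µg of each plasmid by lipid transfection, new medium after 24 h and 72 h of incubation. The labels do not give the share of cells that took up a plasmid. Nothing in the labels says that replicates were separate cultures, so a p-value covers no more than the spread among these libraries, which may be technical.

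Depth was 15356843 to 16351528 gene counts in dCas9-SCN9A libraries and 17770383 to 18984566 in dCas9-empty libraries, 6297752 and 4412097 in ZF-SCN9A libraries, and 6588126 and 7478956 in mCherry libraries. Scn9a lay at 28.2 to 31.0 CPM (gene counts scaled to equal library size after trimmed-mean scaling) in dCas9-SCN9A and 75.3 to 81.1 CPM in dCas9-empty, and at 15.7 and 18.8 CPM in ZF-SCN9A against 56.3 and 62.4 CPM in mCherry, so the target was lower in every library directed at it. Stmn2 and Tubb3, markers of neuronal cells, were abundant in all 10 libraries. Scaling was done within each arm, so levels set across arms are a description.

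The respiratory chain passes electrons from NADH and succinate through complexes I to IV to oxygen and pumps protons, and complex V, the ATP synthase, uses the proton gradient to make ATP. Complexes I, III, IV and V are assembled from subunits of both genomes, while complex II is nuclear throughout. The mitochondrial messenger RNAs are cut from long transcripts made by a dedicated polymerase, and nuclear subunits are transcribed in the nucleus, translated in the cytosol and imported.

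The mitochondrial genome supplied most of the respiratory chain reads. The 13 mitochondrial members held 2.04% to 2.35% of gene counts in dCas9-SCN9A libraries, 1.45% to 2.29% in dCas9-empty, 1.48% and 1.86% in ZF-SCN9A, and 1.59% and 1.76% in mCherry. The 29 nuclear members held less than that in every library, from 0.687% in an mCherry library to 0.776% in a dCas9-SCN9A library. Levels were very uneven within each genome. Per kilobase of exon, averaged over the 4 groups, mt-Cytb (cytochrome b, the mitochondrial subunit of complex III) stood at 4600 CPM per kb and mt-Co1 (the catalytic subunit of complex IV) at 4028 CPM per kb. Together these supplied between 58.6% and 63.8% of the summed CPM of the mitochondrial members in a library. The nuclear member with the highest level was Atp5b (the catalytic beta subunit of ATP synthase) at 593 CPM per kb, which supplied between 32.9% and 35.8% of the nuclear sum.

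Not all mitochondrial members were abundant. Of the 13, 7 stood above Atp5b per kilobase, from mt-Cytb down to mt-Nd6 at 926 CPM per kb. The other 6 stood far lower: mt-Co2 averaged 27.1 CPM per kb, mt-Atp6 19.5, mt-Co3 13.4, mt-Atp8 12.2, mt-Nd3 7.43 and mt-Nd4l 6.99. These 6 lie next to each other on the mitochondrial genome. The same stretch, positions 6390 to 11042 of chromosome M, has an annotated copy in reverse order of coordinates on the minus strand of chromosome 1, positions 24611535 to 24616197, where 7 unprocessed pseudogenes follow each other in the mitochondrial gene order. Gm28661 matched mt-Co2 over 99.6% of its length, Gm10925 matched mt-Atp6 over 99.6%, Gm28437 matched mt-Co3 over 99.9% and Gm10222 matched mt-Nd4l over 99.0%, all with 0 mismatches. Gm28438 matched mt-Nd3 over 99.1% with 1 mismatch. Only part of a further pair lay in the stretch: 63.6% of mt-Nd4 in Gm28439 with 0 mismatches, and 31.3% of mt-Co1 in Gm29216 with 1 mismatch. The other 5 members, mt-Nd1, mt-Nd2, mt-Nd5, mt-Nd6 and mt-Cytb, lie outside the stretch and had no annotated match of 98% identity or more over at least 50 bases. mt-Atp8 had none by that measure either: it is placed inside the stretch by its position between mt-Co2 and mt-Atp6, and only 43 of its bases match an annotated copy.

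The start of mt-Co3 and of its chromosome 1 copy, the start of mt-Nd3 and of its copy, and the same part of mt-Cytb and of its closest annotated copy are shown to let the degrees of likeness be seen. Capitals mark the bases that differ within a pair, all are written 5′ to 3′ on the gene's strand, and positions are counted from 1 at the gene's 5′ end. mt-Co3 (chromosome M, 8607 to 8666, plus strand) and Gm28437 (chromosome 1, 24613912 to 24613971, minus strand) do not differ in these 60 bases.
mt-Co3: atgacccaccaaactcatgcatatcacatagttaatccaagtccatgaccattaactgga
Gm28437: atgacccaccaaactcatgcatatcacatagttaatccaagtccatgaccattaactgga
mt-Nd3 (chromosome M, 9459 to 9518, plus strand) and Gm28438 (chromosome 1, 24613060 to 24613119, minus strand) differ by T3C.
mt-Nd3: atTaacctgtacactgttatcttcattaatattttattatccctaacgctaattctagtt
Gm28438: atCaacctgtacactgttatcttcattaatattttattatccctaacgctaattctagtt
mt-Cytb (chromosome M, 14146 to 14205, plus strand) and Gm11410 (chromosome 4, 80003990 to 80004049, plus strand) differ by G14A, C24T and C61T.
mt-Cytb: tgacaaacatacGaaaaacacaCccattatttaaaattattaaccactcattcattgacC
Gm11410: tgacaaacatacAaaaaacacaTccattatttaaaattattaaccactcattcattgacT
mt-Atp8 carries a second kind of sharing, since its last 43 bases, in capitals here (chromosome M, 7910 to 7969, plus strand), are also the first bases of mt-Atp6 and of Gm10925.
mt-Atp8: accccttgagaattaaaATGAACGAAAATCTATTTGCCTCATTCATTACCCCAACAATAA
A read from a stretch without differences cannot be told apart by its place of origin, and reads that map to several places are listed in a separate entry of the files and enter no gene count. The levels of the 6 members inside the copied stretch, and of those partly inside it, are therefore uncertain.

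With dCas9-SCN9A the mitochondrial members lay higher than in dCas9-empty, and the nuclear members lay close to 0. All 13 mitochondrial members had a log2 fold change above 0, from 0.14 for mt-Nd5 to 0.85 for mt-Co2, with a median of 0.33. Of the 29 nuclear members, 20 lay above 0, with a median of 0.02 and a range from -0.10 to 0.29. Over all 14628 genes tested, 51.7% lay above 0 and the median was 0.0054. In the quasi-likelihood test of edgeR, adjusted by Benjamini-Hochberg, 1 of the 13 mitochondrial members rose at an adjusted p under 0.05 and 0 of the 29 nuclear members were called in either direction, where 0.0342% of all genes were called higher and 0.041% in either direction. At an unadjusted p under 0.05 there were 5 mitochondrial and 2 nuclear members, where 10.1% of all genes passed. DESeq2 called 2 mitochondrial members, mt-Co2 and mt-Co3, where it called 0.191% of all genes, and called no nuclear member. The limma-voom test called 0 members of either genome, where it called 0.0273% of all genes. In bulk RNA, more of a transcript per cell and more cells that hold it cannot be told apart.

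The mitochondrial change did not clear the spread between libraries when the genome was taken as a whole. The mitochondrial sum was 20245, 23815 and 22135 CPM in dCas9-SCN9A libraries 1 to 3, against 14638, 18521 and 22915 CPM in dCas9-empty libraries 1 to 3. The groups overlapped, because dCas9-empty library 3 lay above 2 of the 3 dCas9-SCN9A libraries. The nuclear sum was 7409, 7547 and 7613 CPM in dCas9-SCN9A against 7801, 7521 and 7146 CPM in dCas9-empty. Within dCas9-empty, library 1 had the lowest mitochondrial sum and the highest nuclear sum, and library 3 the reverse. The ratio of mitochondrial to nuclear sum was 2.73, 3.16 and 2.91 in dCas9-SCN9A, against 1.88, 2.46 and 3.21 in dCas9-empty, a difference of 0.25 between the means of the log2 ratio with a pooled standard deviation of 0.28. With each member given equal weight, the difference was 0.40. In the plain sums, without dCas9-empty library 1 the difference was 0.06, and without dCas9-empty library 3 it was 0.45. The median change of the mitochondrial members was 0.19 without dCas9-empty library 1 and 0.55 without dCas9-empty library 3.

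**Figure D1:**
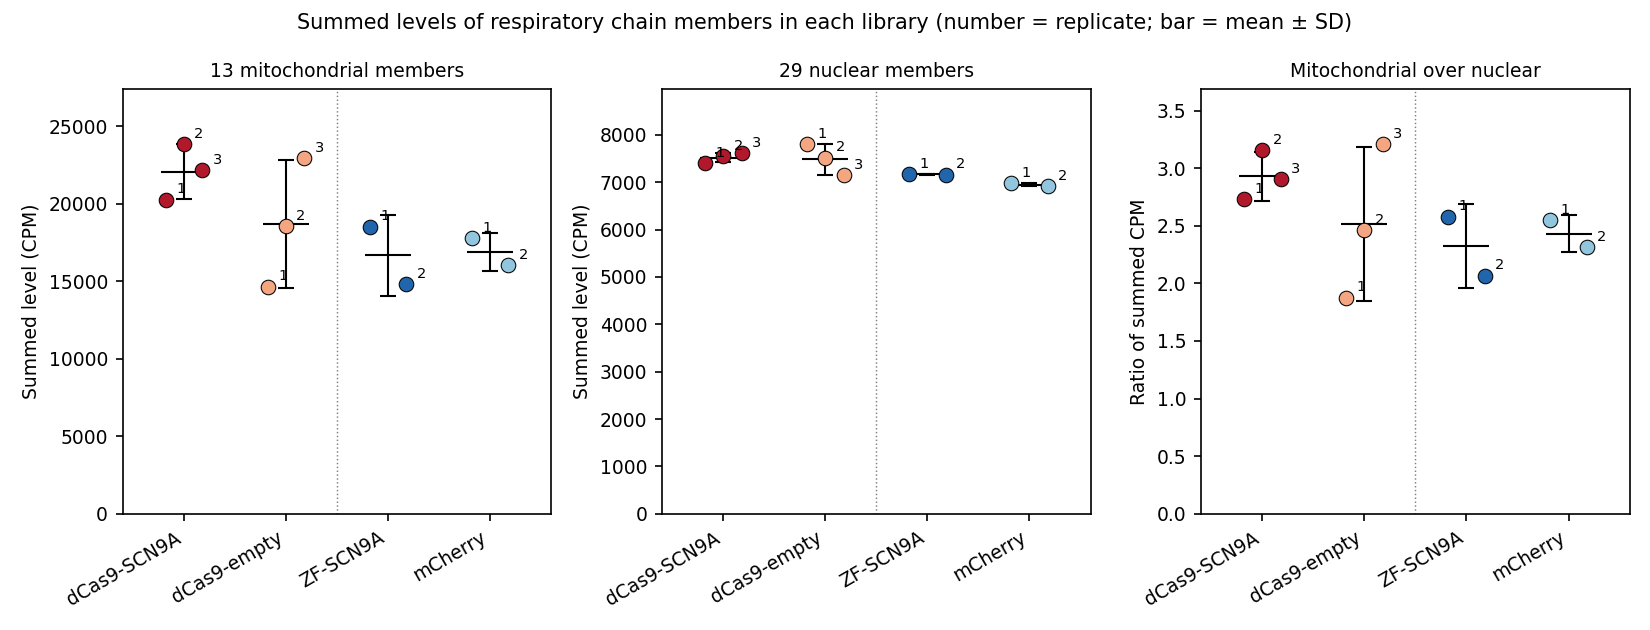
Summed CPM of the 13 mitochondrial members (left), summed CPM of the 29 nuclear members (middle) and their ratio (right) in each library, by group, with points numbered by replicate and bars giving the mean and SD. The dCas9-empty libraries spread from 14638 to 22915 CPM in the mitochondrial sum and overlap the dCas9-SCN9A libraries, while the nuclear sums of the 10 libraries lie between 6924 and 7801 CPM.

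The 6 members inside the copied stretch carried most of the low p-values. Their median log2 fold change was 0.63, and 5 of the 6 had an unadjusted p under 0.05. The 5 members outside it had a median of 0.27 and 0 of 5 at that level, and mt-Co1 and mt-Nd4, partly inside, had changes of 0.21 and 0.33 with p-values of 0.291 and 0.236 by edgeR. mt-Co3 (ENSMUSG00000064358, chromosome M, 8607 to 9390, plus strand), a core subunit of complex IV, was the called member. It stood at 24.1, 19.6 and 26.4 CPM in dCas9-SCN9A against 12.2, 14.9 and 15.7 CPM in dCas9-empty. The groups did not overlap, as for 4 of the 13 mitochondrial members in the higher direction, where 6.5% of all genes did not overlap in that direction. Its log2 fold change was 0.71 ± 0.12 (SE, n = 3 each; edgeR adjusted p = 0.0498). The call lies close to the threshold and was lost in 10 of the 17 alternative settings, with adjusted p-values over all 17 from 4.02e-09 to 0.402.

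mt-Co2 (chromosome M, 7013 to 7696, plus strand), which receives electrons from cytochrome c, stood at 41.7, 33.1 and 48.9 CPM in dCas9-SCN9A against 20.5, 21.3 and 26.6 CPM in dCas9-empty. The groups did not overlap, and the log2 fold change was 0.85 ± 0.15 (SE; edgeR adjusted p = 0.156). It passed the threshold in 6 of 17 alternative settings, with an adjusted p of 0.0494 without dCas9-empty library 3 and 0.00101 without dCas9-SCN9A library 2. mt-Atp8 and mt-Atp6 encode the mitochondrial subunits of the membrane part of ATP synthase. mt-Atp8 (chromosome M, 7766 to 7969) stood at 5.56, 4.83 and 7.04 CPM in dCas9-SCN9A against 3.38, 3.79 and 3.66 CPM in dCas9-empty, without overlap, and had a log2 fold change of 0.69 ± 0.18 (SE; edgeR adjusted p = 0.214), and it passed in 2 of 17 settings. mt-Atp6 (chromosome M, 7927 to 8607) stood at 31.8, 20.2 and 30.4 CPM in dCas9-SCN9A against 17.3, 20.3 and 19.2 CPM in dCas9-empty. Its groups overlapped, since dCas9-SCN9A library 2 lay among the dCas9-empty libraries, and its log2 fold change was 0.54 ± 0.16 (SE; edgeR adjusted p = 0.319). It passed in 3 of 17 settings, with an adjusted p of 1.42e-05 without a filter on low counts, 0.0308 on 1 strand's counts and 0.00101 without dCas9-SCN9A library 2. mt-Nd3, a small membrane subunit of complex I, did not overlap either, at 6.28, 4.03 and 7.17 CPM in dCas9-SCN9A against 3.83, 3.90 and 3.94 CPM in dCas9-empty. mt-Nd4l, another small membrane subunit, did overlap, at 4.79, 2.91 and 4.63 CPM in dCas9-SCN9A against 2.14, 2.62 and 4.39 CPM in dCas9-empty.

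The annotated copies on chromosome 1, taken as a sum, also lay higher in dCas9-SCN9A. The summed CPM of the 6 members was 114, 84.6 and 125 in dCas9-SCN9A against 59.4, 66.8 and 73.5 in dCas9-empty, 1.62 times higher on average and without overlap. The summed CPM of the 7 copies was 197, 153 and 212 in dCas9-SCN9A against 102, 122 and 139 in dCas9-empty, 1.55 times higher and also without overlap. In both sums dCas9-SCN9A library 2 was the lowest of its group and dCas9-empty library 3 the highest of its group. The 7 copies include Gm29216 and Gm28439, which match parts of mt-Co1 and mt-Nd4. None of the 7 was called (lowest edgeR adjusted p = 0.156, for Gm10925), where 0.041% of all genes were. Gm28437, Gm28438 and Gm28439 overlapped between the groups. Gm28661, Gm10925, Gm10222 and Gm29216 did not, where 6.5% of all genes did not overlap in the higher direction. The sum of the 5 members outside the stretch, which hold far more reads, was 11904, 13715 and 13314 CPM in dCas9-SCN9A against 8904, 10706 and 13301 CPM in dCas9-empty, 1.18 times higher with overlap. Reads mapping to several places made up 8.84%, 8.82% and 8.98% of reads in dCas9-SCN9A against 7.99%, 8.28% and 8.35% in dCas9-empty. These reads enter no gene count, and how many of them came from the 6 members was not tested.

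**Figure D2:**
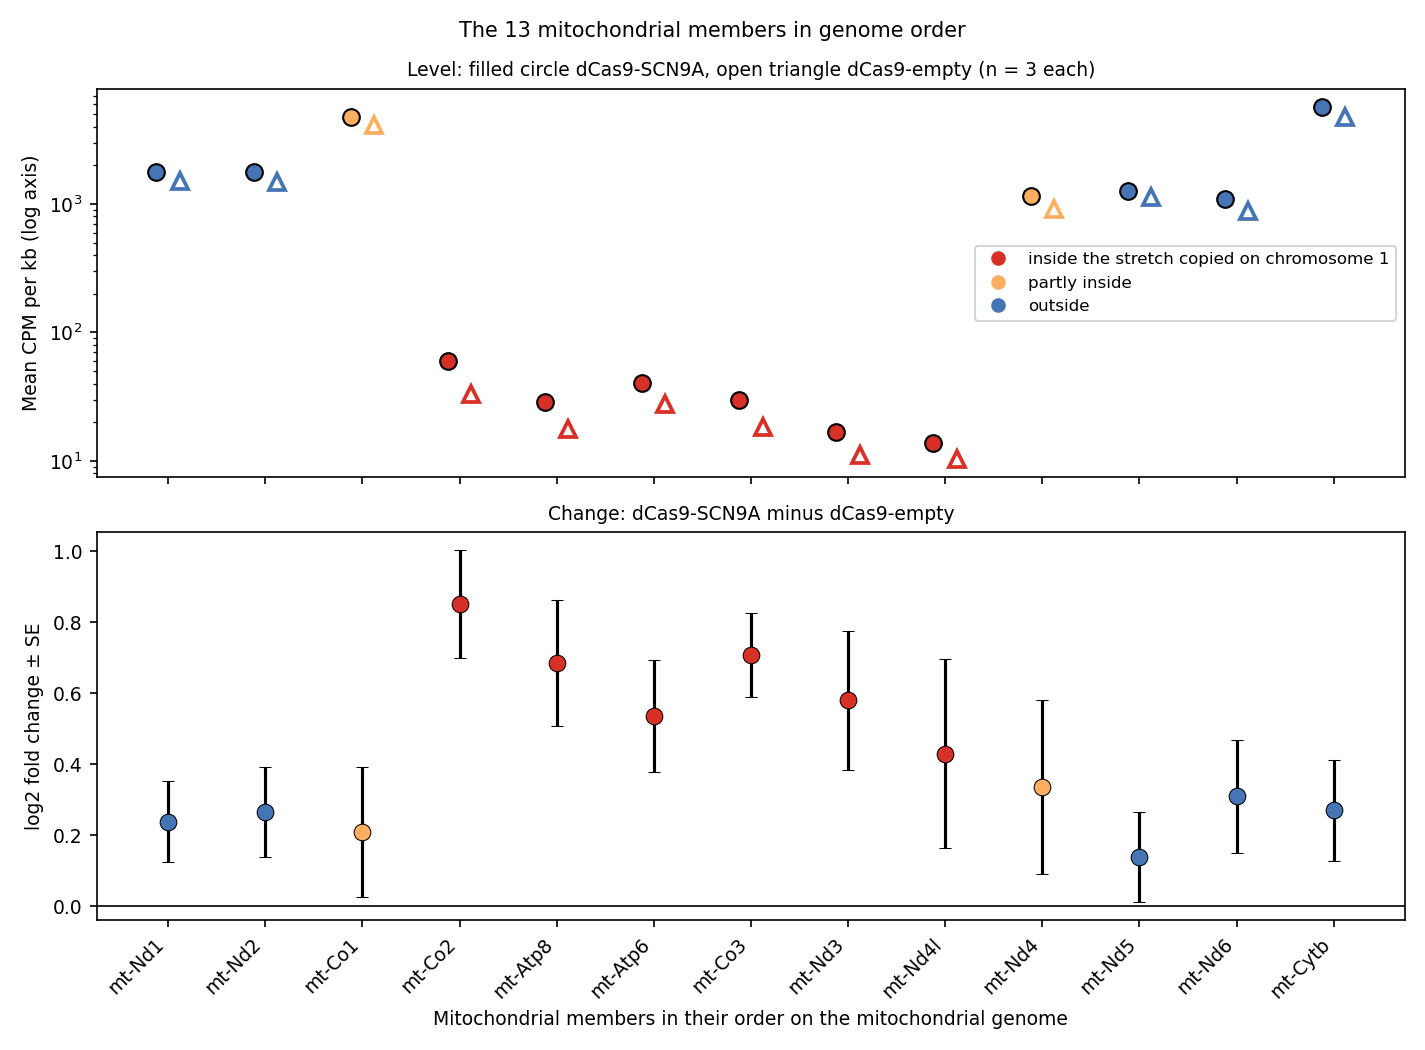
The 13 mitochondrial members in their order on the mitochondrial genome, with the mean CPM per kb in dCas9-SCN9A and dCas9-empty on a log axis (top) and the log2 fold change with its SE (bottom), coloured by position relative to the stretch copied on chromosome 1. The 6 members inside the stretch have mean levels between 10.3 and 60.3 CPM per kb and changes between 0.43 and 0.85, while the 5 outside lie between 886 and 5734 CPM per kb with changes between 0.14 and 0.31.

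**Figure D3:**
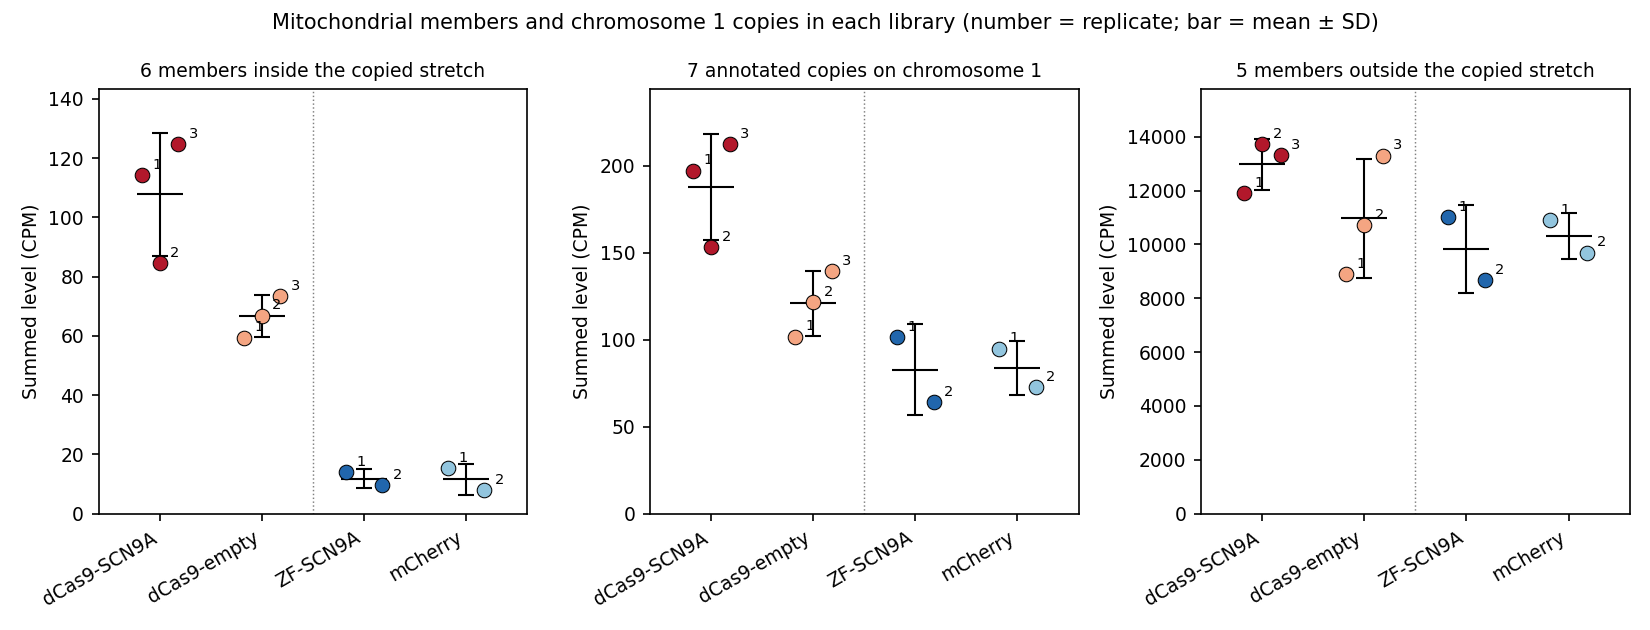
Summed CPM in each library of the 6 mitochondrial members inside the copied stretch (left), of the 7 annotated copies on chromosome 1 (middle) and of the 5 members outside the stretch (right), by group, with points numbered by replicate and bars giving the mean and SD. Left and middle, the dCas9-SCN9A libraries lie above the dCas9-empty libraries, the lowest at 84.6 and 153 CPM against highest values of 73.5 and 139 CPM, and right they overlap.

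Among the abundant members, mt-Cytb (chromosome M, 14145 to 15288, plus strand) stood at 6054, 6967 and 6658 CPM in dCas9-SCN9A against 4336, 5281 and 6704 CPM in dCas9-empty, a log2 fold change of 0.27 ± 0.14 (SE; edgeR adjusted p = 0.578). mt-Co1 (chromosome M, 5328 to 6872, plus strand) stood at 6847, 8231 and 7088 CPM in dCas9-SCN9A against 4759, 6505 and 7917 CPM in dCas9-empty, a log2 fold change of 0.21 ± 0.18 (SE; edgeR adjusted p = 0.765). In both genes the highest dCas9-empty library lay within the range of dCas9-SCN9A. mt-Nd1 and mt-Nd4 are core membrane subunits of complex I. mt-Nd1 (chromosome M, 2751 to 3707, plus strand) stood at 1530.3, 1765 and 1827 CPM in dCas9-SCN9A against 1228, 1414 and 1701 CPM in dCas9-empty. mt-Nd4 (chromosome M, 10167 to 11544, plus strand) stood at 1379, 1784 and 1608 CPM in dCas9-SCN9A against 916, 1243 and 1624 CPM in dCas9-empty. Both overlapped, with dCas9-empty library 1 the lowest and library 3 inside the dCas9-SCN9A range. With 1 library left out the log2 fold change lay between 0.14 and 0.45 for mt-Cytb, 0.04 and 0.40 for mt-Co1, 0.14 and 0.38 for mt-Nd1, and 0.16 and 0.56 for mt-Nd4. In each gene the lowest value was that without dCas9-empty library 1 and the highest that without dCas9-empty library 3. mt-Nd2, mt-Nd5 and mt-Nd6, the other complex I members outside the copied stretch, had log2 fold changes of 0.27, 0.14 and 0.31, with edgeR adjusted p-values of 0.538, 0.775 and 0.594.

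The mitochondrial messengers are short, and short genes as a class lay higher in dCas9-SCN9A. Of the 2650 genes tested with an exon length in the range of the mitochondrial members, from 204 to 1824 bases, 1907 lay above 0, with a median log2 fold change of 0.10. Genes in the length range of the nuclear members, from 419 to 8086 bases, had a median of 0.02. After a correction for exon length in each library, the median of the mitochondrial members was 0.21 and that of the nuclear members -0.01. The mitochondrial ribosomal RNAs mt-Rnr1 and mt-Rnr2, which come from the same genome, had log2 fold changes of 0.47 and 0.49. They were not called (edgeR adjusted p = 0.571 and 0.519). Between the groups mt-Rnr1 overlapped and mt-Rnr2 did not, where 6.5% of all genes did not overlap in the higher direction. The sum of both was 969, 1038 and 1273 CPM in dCas9-SCN9A against 659.5, 704 and 983 CPM in dCas9-empty, with overlap.

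**Figure D4:**
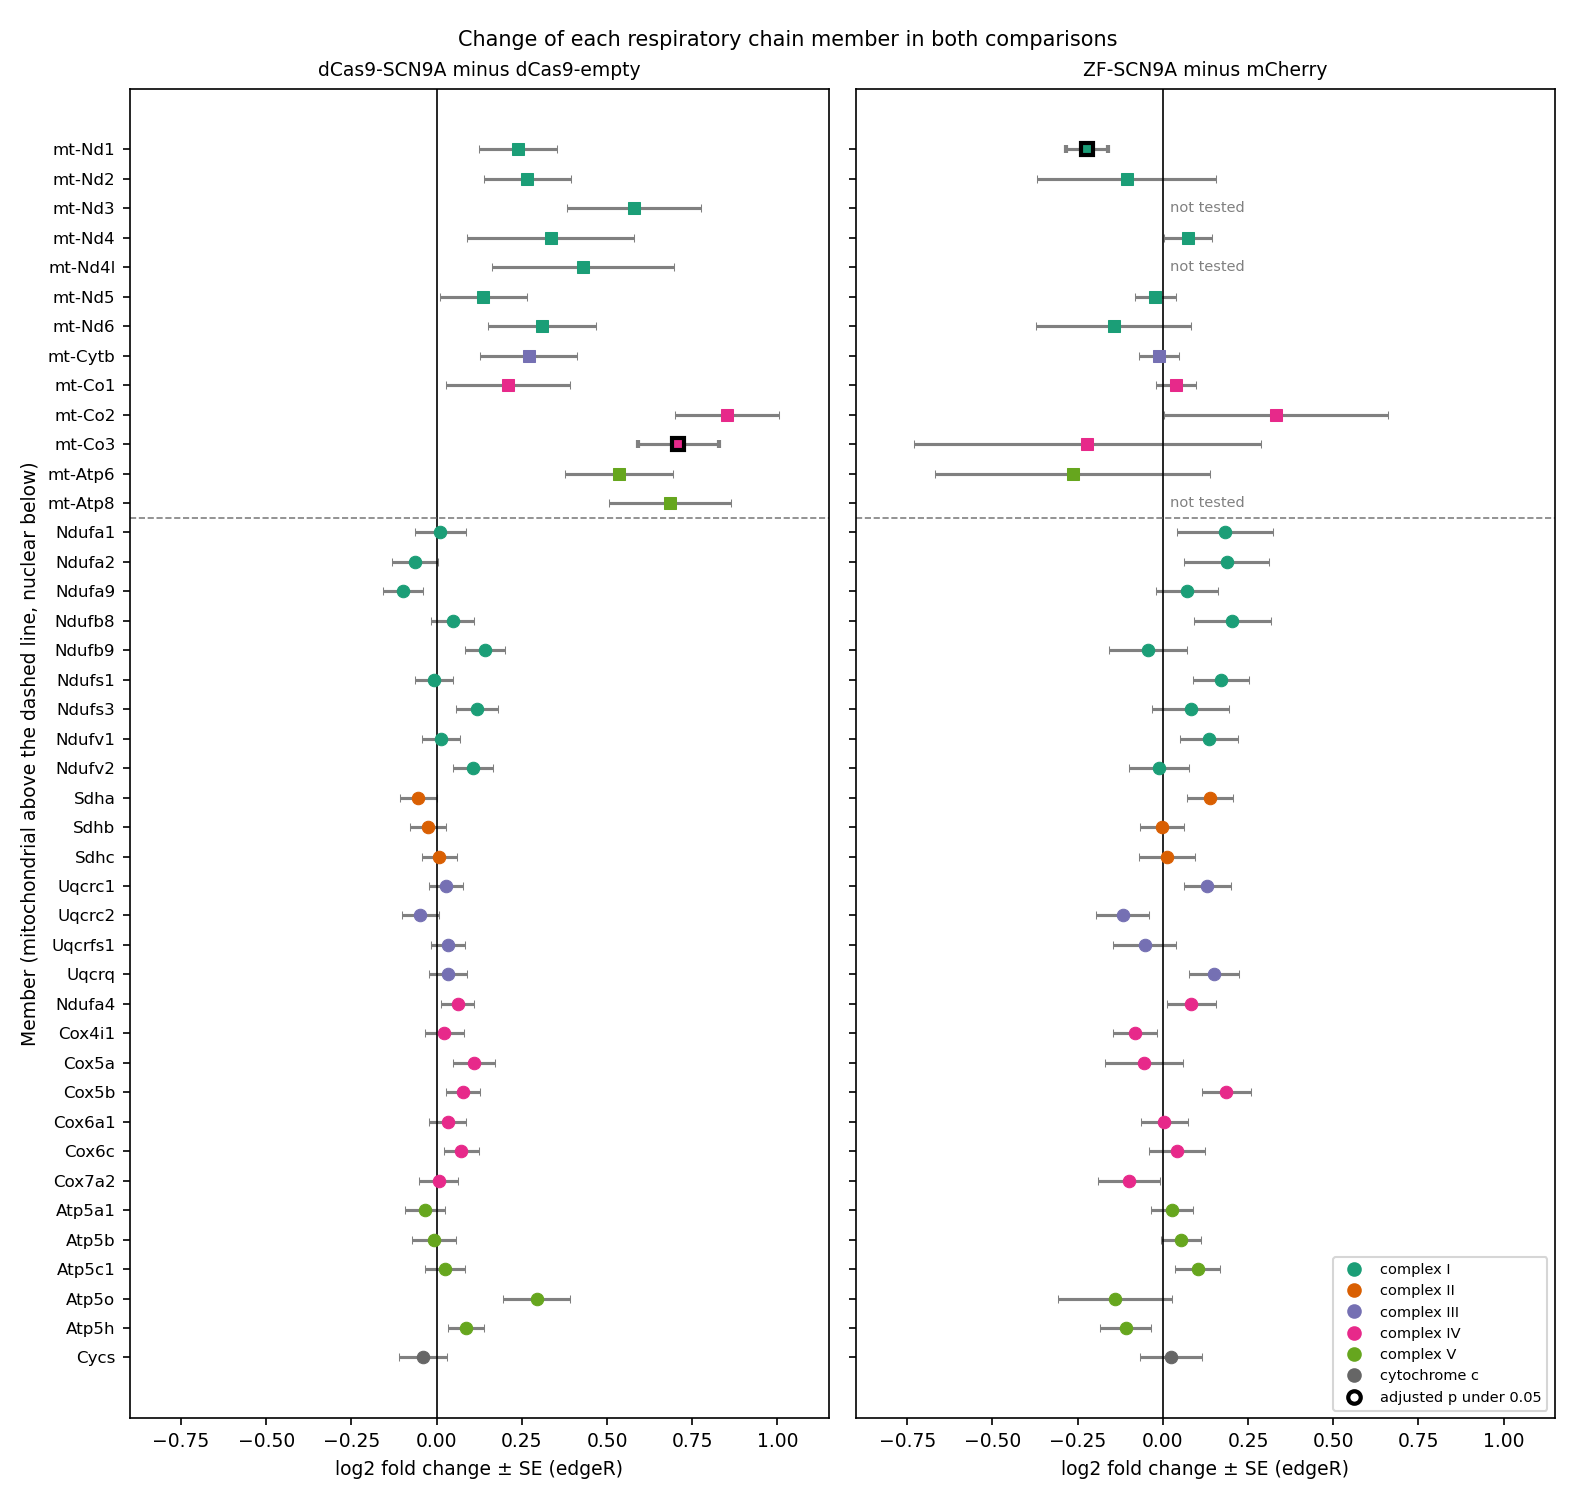
Log2 fold change with its SE for each of the 42 members, dCas9-SCN9A minus dCas9-empty (left) and ZF-SCN9A minus mCherry (right), grouped by genome and coloured by complex, with called members ringed in black and members under the count filter marked as not tested. On the left all mitochondrial members lie above 0 and the nuclear members lie between -0.10 and 0.29, and on the right the nuclear members lie between -0.14 and 0.20.

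With ZF-SCN9A the medians of both genomes lay close to 0 relative to mCherry. Of the 13 mitochondrial members, 10 passed the filter on low counts, and mt-Nd3, mt-Nd4l and mt-Atp8 did not. Of these 10, 3 had a log2 fold change above 0, with a median of -0.06, and of the 29 nuclear members 19 did, with a median of 0.04, where 50.4% of the 12899 genes tested lay above 0 with a median of 0.0017. In the edgeR test 1 mitochondrial member was called lower, where 2.78% of all genes were called lower, and 0 nuclear members were called in either direction, where 4.72% were. At an unadjusted p under 0.05 there were 1 mitochondrial and 4 nuclear members, where 16.2% of all genes passed, and DESeq2 called 0 members of either genome, where it called 0.992% of all genes and gave no adjusted p for 3 of the mitochondrial members. The limma-voom test also called 0 members, where it called 4.78% of all genes. The mitochondrial sum was 18515 and 14809 CPM in ZF-SCN9A against 17772 and 16040.3 CPM in mCherry, with overlap. The nuclear sum was 7178 and 7163 CPM in ZF-SCN9A against 6979 and 6924 CPM in mCherry, 1.03 times higher without overlap. The ratio of mitochondrial to nuclear sum was 2.58 and 2.07 in ZF-SCN9A against 2.55 and 2.32 in mCherry, with overlap. With 2 libraries in each group, 88.0% of genes were given a spread shared across genes instead of their own.

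mt-Nd1 was the called member, and its libraries overlapped. It stood at 1479 and 1211 CPM in ZF-SCN9A against 1718 and 1424 CPM in mCherry, and the log2 fold change was -0.22 ± 0.06 (SE, n = 2 each; edgeR adjusted p = 0.0124). ZF-SCN9A library 1 lay above mCherry library 2. Without mCherry library 1 the change was -0.08 (adjusted p = 0.772), without ZF-SCN9A library 2 it was -0.08 (adjusted p = 0.830), and limma-voom gave an adjusted p of 0.311. The call was lost in 6 of 15 alternative settings, and over all 15 the adjusted p ranged from 5.4e-05 to 0.979. The abundant members mt-Co1, mt-Nd4 and mt-Cytb had log2 fold changes of 0.04, 0.07 and -0.01, and all 3 overlapped between the groups. mt-Co1 stood at 6156 and 5103 CPM in ZF-SCN9A against 5686 and 5271 CPM in mCherry. mt-Nd4 stood at 1345 and 1009.6 CPM in ZF-SCN9A against 1172 and 1069 CPM in mCherry. mt-Cytb stood at 4981 and 4029 CPM in ZF-SCN9A against 4728 and 4362 CPM in mCherry. In each of these the ZF-SCN9A libraries lay on either side of both mCherry libraries.

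The members inside the copied stretch were close to the counting limit in this arm. mt-Co2 held 42 and 19 counts in ZF-SCN9A against 38 and 24 counts in mCherry. mt-Co3 held 10 and 11 counts in ZF-SCN9A against 20 and 12 counts in mCherry. mt-Atp6 held 27 and 7 counts in ZF-SCN9A against 32 and 20 counts in mCherry. The standard errors of their log2 fold changes were 0.33, 0.51 and 0.40, against 0.15, 0.12 and 0.16 in the dCas9 comparison. mt-Nd3 held 5 and 0 counts in ZF-SCN9A against 3 and 0 counts in mCherry, where a count of 0 allows up to 3 counts, and mt-Atp8 and mt-Nd4l held between 1 and 5 counts in each library.

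The nuclear complex I members comprise catalytic core subunits and accessory subunits. In dCas9-SCN9A the 9 members had a median change of 0.01, and in ZF-SCN9A of 0.14, with 7 of 9 above 0. Ndufb9 (chromosome 15, 58933756 to 58939488, plus strand), an accessory subunit of the membrane arm, stood at 64.6, 62.4 and 60.8 CPM in dCas9-SCN9A against 57.6, 56.5 and 56.1 CPM in dCas9-empty. The groups did not overlap, as for 3 of 29 nuclear members with dCas9 in the higher direction, where 6.5% of all genes did not, and the log2 fold change was 0.14 ± 0.06 (SE; edgeR adjusted p = 0.423). It was 0.25 on 1 strand's counts and 0.07 after the exon length correction. Ndufb9 shares 19.5% of its exon bases with Gm49356 on the same strand, so reads there cannot be told apart. In the zinc-finger arm it stood at 51.5 and 47.9 CPM in ZF-SCN9A against 52.7 and 50.1 CPM in mCherry, with overlap. Ndufs3, a core subunit, stood at 57.7, 63.0 and 58.7 CPM in dCas9-SCN9A against 55.5, 56.0 and 53.8 CPM in dCas9-empty, without overlap (log2 fold change 0.12 ± 0.06, edgeR adjusted p = 0.544), and on 1 strand's counts its change was 0.03. In the zinc-finger arm Ndufs3 stood at 52.4 and 54.9 CPM in ZF-SCN9A against 49.4 and 51.8 CPM in mCherry, without overlap, with a change of 0.08 that was 0.30 on 1 strand's counts. The processed pseudogene Gm12251 matches 75.7% of its transcript, so its counts are uncertain. Ndufv2, a core subunit of the electron input module, had a log2 fold change of 0.11 ± 0.06 with dCas9 (edgeR adjusted p = 0.572) and -0.01 ± 0.09 with the zinc finger (adjusted p = 0.972). It stood at 113, 126 and 110.0 CPM in dCas9-SCN9A against 113, 107 and 104 CPM in dCas9-empty, and the groups overlapped.

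Ndufs1, the largest core subunit of complex I, had the lowest p of the nuclear complex I members in the zinc-finger arm. It stood at 116 and 126 CPM in ZF-SCN9A against 109 and 106 CPM in mCherry, without overlap, a log2 fold change of 0.17 ± 0.08 (SE; edgeR adjusted p = 0.272). In the dCas9 arm it stood at 112, 112 and 119 CPM in dCas9-SCN9A against 118, 108 and 119.6 CPM in dCas9-empty, and the groups overlapped. Ndufa1, an accessory subunit encoded on the X chromosome, had the highest level per kilobase of the nuclear complex I members. It stood at 34.2, 36.3 and 38.5 CPM in dCas9-SCN9A against 38.0, 34.6 and 35.5 CPM in dCas9-empty, with overlap, and at 31.3 and 32.7 CPM in ZF-SCN9A against 27.4 and 28.8 CPM in mCherry, without overlap. Its changes were 0.01 ± 0.07 and 0.18 ± 0.14 (SE; edgeR adjusted p = 0.975 and 0.574). Across all nuclear members, 11 of 29 did not overlap in the higher direction with ZF-SCN9A and 4 in the lower direction. Of all genes, 23.3% did not overlap in the higher direction and 22.3% in the lower direction. The other complex I members, Ndufa2, Ndufa9, Ndufb8 and the NADH-binding subunit Ndufv1, had log2 fold changes of -0.06, -0.10, 0.05 and 0.01 with dCas9-SCN9A and of 0.19, 0.07, 0.20 and 0.14 with ZF-SCN9A.

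Complex II oxidises succinate and belongs also to the citric acid cycle. Its 3 members had changes between -0.05 and 0.01 with dCas9-SCN9A. Sdhb, the iron-sulfur subunit, stood at 314, 334 and 337 CPM in dCas9-SCN9A against 342, 341 and 320.1 CPM in dCas9-empty, and at 319.6 and 343 CPM in ZF-SCN9A against 341 and 322 CPM in mCherry. The groups overlapped in both arms, and the changes were -0.02 ± 0.05 and -0.0031 ± 0.065 (SE). Sdha, the catalytic flavoprotein, stood at 249 and 264 CPM in ZF-SCN9A against 229.9 and 235 CPM in mCherry, without overlap, a log2 fold change of 0.14 ± 0.07 (SE; edgeR adjusted p = 0.285). In the dCas9 arm Sdha stood at 263, 243 and 258 CPM in dCas9-SCN9A against 276, 264 and 253 CPM in dCas9-empty, with overlap. Sdhc, a membrane anchor, had a change of 0.01 in both arms and was not called.

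The nuclear complex III members are the core proteins Uqcrc1 and Uqcrc2, the Rieske iron-sulfur protein Uqcrfs1 and the small subunit Uqcrq. With dCas9-SCN9A the 4 members lay between -0.05 and 0.03. Uqcrq had the highest level per kilobase and stood at 204 and 185 CPM in ZF-SCN9A against 174 and 178 CPM in mCherry, without overlap, a log2 fold change of 0.15 ± 0.07 (SE; edgeR adjusted p = 0.264). In the dCas9 arm it stood at 159, 167 and 176 CPM in dCas9-SCN9A against 173, 160.0 and 157 CPM in dCas9-empty, with overlap. The core proteins went apart in the zinc-finger arm, Uqcrc1 with a change of 0.13 and Uqcrc2 with -0.12, each without overlap between the groups, and neither was called (edgeR adjusted p = 0.342 and 0.484). Uqcrfs1 had a change of -0.05 there.

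In complex IV the mitochondrial members had the larger changes with dCas9-SCN9A. Its 3 mitochondrial members had changes of 0.21, 0.71 and 0.85, of which the 2 larger belong to genes in the copied stretch, while its 7 nuclear members lay between 0.01 and 0.11, all above 0 and none called. The value of 0.21, that of mt-Co1, was 0.04 without dCas9-empty library 1. Cox6a1, a nuclear subunit found in most tissues, had the highest nuclear level per kilobase in this complex. It stood at 202, 213 and 221 CPM in dCas9-SCN9A against 217, 209.8 and 196 CPM in dCas9-empty, and at 241 and 263 CPM in ZF-SCN9A against 246 and 255 CPM in mCherry. The groups overlapped in both arms, with changes of 0.03 ± 0.05 and 0.0047 ± 0.068 (SE). Cox5b, a zinc-binding subunit on the matrix side, had the lowest p of the nuclear members in the zinc-finger arm. It stood at 216 and 204 CPM in ZF-SCN9A against 179 and 191 CPM in mCherry, without overlap, a log2 fold change of 0.19 ± 0.07 (SE; edgeR adjusted p = 0.119). It stood at 197, 209.5 and 207 CPM in dCas9-SCN9A against 198, 197 and 187 CPM in dCas9-empty, with overlap. The gene Gm11273 matches 45.1% of the Cox5b transcript, so its counts are uncertain. Ndufa4 did not overlap with dCas9, at 227.2, 239.1 and 239.1 CPM in dCas9-SCN9A against 226.6, 226.7 and 222.7 CPM in dCas9-empty, a log2 fold change of 0.06 ± 0.05 (edgeR adjusted p = 0.726). Cox4i1, Cox5a, Cox6c and Cox7a2, the remaining nuclear members of complex IV, had log2 fold changes of 0.02, 0.11, 0.07 and 0.01 with dCas9-SCN9A and of -0.08, -0.06, 0.04 and -0.10 with ZF-SCN9A.

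In complex V the mitochondrial members also had the larger changes. Its mitochondrial members mt-Atp6 and mt-Atp8, both inside the copied stretch, had changes of 0.54 and 0.69 with dCas9-SCN9A, and its 5 nuclear members had a median of 0.02. Atp5b stood at 2519, 2479 and 2537 CPM in dCas9-SCN9A against 2668, 2533 and 2377 CPM in dCas9-empty, and at 2572 and 2536 CPM in ZF-SCN9A against 2465 and 2463 CPM in mCherry. The dCas9 groups overlapped and the zinc-finger groups did not, with changes of -0.01 ± 0.06 and 0.05 ± 0.06 (SE; edgeR adjusted p = 0.978 and 0.744). Atp5o, the subunit that joins the catalytic head to the peripheral stalk, had the largest nuclear change with dCas9. It stood at 29.8, 27.6 and 32.1 CPM in dCas9-SCN9A against 28.4, 21.9 and 22.8 CPM in dCas9-empty, with overlap, a log2 fold change of 0.29 ± 0.10 (SE; edgeR adjusted p = 0.325). In the zinc-finger arm it stood at 19.8 and 18.4 CPM in ZF-SCN9A against 24.5 and 18.1 CPM in mCherry, with overlap. Other genes share 47.9% of its exon bases, 2 of them on the opposite strand, and on 1 strand's counts alone its changes were 0.14 with dCas9 and 0.31 with the zinc finger. The catalytic-head subunits Atp5a1 and Atp5c1 and the stalk subunit Atp5h had log2 fold changes of -0.03, 0.02 and 0.09 with dCas9-SCN9A and of 0.03, 0.10 and -0.11 with ZF-SCN9A. Cycs, the cytochrome c that carries electrons between complexes III and IV, stood at 73.0, 73.0 and 82.8 CPM in dCas9-SCN9A against 86.0, 77.8 and 71.6 CPM in dCas9-empty, and at 85.2 and 90.8 CPM in ZF-SCN9A against 86.4 and 86.1 CPM in mCherry. The groups overlapped in both arms, and 4 annotated genes match parts of its transcript at 98% identity or more.

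The change in dCas9-SCN9A relative to dCas9-empty was also set against that in ZF-SCN9A relative to mCherry, in 1 fit of all 10 libraries. For the 13 mitochondrial members the dCas9 change minus the zinc-finger change had a median of 0.38 on the log2 scale, with 11 of 13 above 0, where 49.9% of all genes were, and for the 29 nuclear members a median of -0.02, with 13 of 29 above 0. The median and count of the 13 include mt-Nd3, mt-Nd4l and mt-Atp8, which did not pass the count filter in the zinc-finger arm alone. They held between 0 and 5 counts in each library of that arm. Their differences were -0.48 ± 1.16, -0.16 ± 0.92 and 0.72 ± 1.03 (SE), so these 3 values say little. No member of either genome was called, where 0.907% of 15766 genes were. The lowest adjusted p was 0.471 among mitochondrial and 0.375 among nuclear members, and 0 mitochondrial and 3 nuclear members had an unadjusted p under 0.05, where 10.9% of all genes did. DESeq2, which called 1.04% of all genes in this contrast, and limma-voom, which called 0.71%, called no member either, and DESeq2 gave no adjusted p for 3 mitochondrial members.

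The rest of the respiratory chain was examined as a list of further nuclear subunits. Of 54 further nuclear subunit genes of complexes I to V, 53 were tested in each arm. With dCas9-SCN9A 41 of 53 lay above 0, with a median of 0.05 and 0 called. With ZF-SCN9A 44 of 53 lay above 0, with a median of 0.10, and 3 were called higher, where 1.95% of all genes were called higher. Ndufs7, a core subunit of complex I, stood at 71.6 and 73.3 CPM in ZF-SCN9A against 50.3 and 56.3 CPM in mCherry, a log2 fold change of 0.44 ± 0.10 (SE; edgeR adjusted p = 0.00158). Cox8a, a small subunit of complex IV, stood at 134 and 142 CPM in ZF-SCN9A against 94.9 and 121 CPM in mCherry, a log2 fold change of 0.34 ± 0.08 (SE; edgeR adjusted p = 0.00149). Cox7a1, the form of its subunit best known from heart and skeletal muscle, stood at 6.81 and 9.08 CPM in ZF-SCN9A against 2.60 and 5.26 CPM in mCherry, a log2 fold change of 0.97 ± 0.31 (SE; edgeR adjusted p = 0.0435). None of the 3 overlapped between the groups, where 23.3% of all genes did not overlap in the higher direction. Genes in the exon length range of the mitochondrial members had a median of 0.06 in this comparison.

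Genes that serve the chain without being part of it were examined as lists. With dCas9-SCN9A 43 assembly factors and 32 genes for the upkeep and expression of mitochondrial DNA were tested. Of these 0 were called, where 0.041% of all genes were, and the medians were 0.02 and 0.03. Polrmt, the mitochondrial RNA polymerase, stood at 68.1, 66.1 and 67.4 CPM in dCas9-SCN9A against 65.3, 60.4 and 65.97 CPM in dCas9-empty, a log2 fold change of 0.07 (edgeR adjusted p = 0.728). Tfam, which packages mitochondrial DNA and starts its transcription, stood at 67.5, 60.8 and 66.2 CPM in dCas9-SCN9A against 66.8, 62.8 and 67.4 CPM in dCas9-empty, with overlap and a change of -0.02. In the zinc-finger arm 41 assembly factors and 31 genes for mitochondrial DNA were tested, with medians of 0.06 and 0.01. Again 0 were called, where 4.72% of all genes were. The 78 mitochondrial ribosomal protein genes tested in each arm had medians of 0.04 with dCas9 and 0.07 with the zinc finger. In either arm 0 were called, beside the same shares of 0.041% and 4.72% of all genes.

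Of the regulators of mitochondrial gene programmes, 12 of 13 tested lay below 0 with dCas9-SCN9A, with a median of -0.06 and 0 called. With ZF-SCN9A 2 of 12 were called lower, where 2.78% of all genes were. The transcription factor Yy1 stood at 145 and 153 CPM in ZF-SCN9A against 192 and 177 CPM in mCherry (log2 fold change -0.31 ± 0.08, edgeR adjusted p = 0.00218). The cyclic AMP-responsive factor Creb1 stood at 68.2 and 61.1 CPM in ZF-SCN9A against 85.5 and 77.0 CPM in mCherry (log2 fold change -0.32 ± 0.10, edgeR adjusted p = 0.0287). Of the 17 citric acid cycle and pyruvate dehydrogenase genes, 15 lay below 0 with dCas9-SCN9A, with a median of -0.02 and 0 called. With ZF-SCN9A the median was 0.04. Of 13 mitochondrial chaperones and proteases, Trap1, a chaperone of the HSP90 family, was called higher with ZF-SCN9A (0.33 ± 0.08, adjusted p = 0.00236), where 1.95% of all genes were, and 0 were called with dCas9-SCN9A. The mitochondrial 16S ribosomal RNA mt-Rnr2 was called lower with ZF-SCN9A, at 942 and 802 CPM in ZF-SCN9A against 1154 and 892 CPM in mCherry, and its libraries overlapped (-0.23 ± 0.07, adjusted p = 0.0435).

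Markers of other cell types were summed as lists. The summed CPM of 7 fibroblast markers was 8.18 to 22.3 in dCas9-SCN9A, 9.77 to 19.9 in dCas9-empty, 16.1 to 22.2 in ZF-SCN9A and 14.8 to 19.0 in mCherry, and that of 7 immune markers was below 3 in every library. Of the 3 fibroblast markers tested, the collagen gene Col1a1 was called higher with ZF-SCN9A (1.07 ± 0.35, edgeR adjusted p = 0.0452), where 1.95% of all genes were. With dCas9-SCN9A 0 were called, where 0.041% of all genes were. The other collagen genes of the list did not pass the count filter in the zinc-finger arm. Col1a2 held 14 and 3 counts in ZF-SCN9A against 5 and 6 in mCherry, and Col3a1 held 2 and 2 against 3 and 8. Glial markers summed to 25.4 to 28.1 CPM in dCas9-SCN9A and 24.0 to 27.1 CPM in dCas9-empty, and endothelial markers to 81.4 to 88.6 CPM in dCas9-SCN9A and 81.3 to 97.7 CPM in dCas9-empty. In the zinc-finger arm glial markers summed to 32.9 to 38.3 CPM in ZF-SCN9A and 32.7 to 34.2 CPM in mCherry, and endothelial markers to 58.9 to 60.6 CPM in ZF-SCN9A and 50.3 to 55.7 CPM in mCherry. In both arms 0 genes of these 2 lists were called. The 15 neuroblastoma markers, of which 12 were tested, summed to 5623 to 6323 CPM in dCas9-SCN9A and 5726 to 6125 CPM in dCas9-empty, with 0 called. In the zinc-finger arm they summed to between 4951 and 5046 CPM in ZF-SCN9A and between 4532 and 4862 CPM in mCherry, with 3 called higher (Prph, Dbh and Chga) and 2 lower (Gata2 and Hand2), where 1.95% of all genes were called higher and 2.78% lower. The part of these markers in the values of the members was not tested.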

How the data were processed

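RNA from 10 Neuro2a libraries was sequenced, and the authors deposited 1 table of unnormalized gene counts for every library, with sums between 4412097 and 18984566. The submitters' processing notes name the build GRCm38 and, as tools, STAR 2.7.3a, bcl2fastq 2.20 and DESeq2, and give no annotation release or settings. The counts without regard to strand were used, so reads of a gene and of one overlapping it on the other strand cannot be told apart. Entries for plasmids and for reads assigned to no gene, between 25.0% and 28.2% of each library, were left out of library sizes.

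Gene names came from GENCODE M21, which holds 55141 of the 55401 identifiers. Each arm was fitted alone with edgeR 4.0.16 (trimmed-mean scaling, filter by expression, quasi-likelihood test in R 4.3.3), p-values were adjusted over all genes tested by Benjamini-Hochberg, and a gene was called at an adjusted p under 0.05. CPM were computed from the counts with the trimmed-mean library sizes. The difference between the arms was 1 contrast over all 10 libraries. DESeq2 1.42.0, limma-voom (limma 3.58.1), other scalings and filters, 1 strand's counts, an exon length correction, a replicate block and leaving out each library were alternatives. Annotated copies were found with BLAST 2.17.0 among GENCODE transcripts, at 98% identity or more over at least 50 bases. The fit was tested on simulated counts.

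The members and lists were chosen with earlier results of these data known. Library values are given for members called in either arm, for the 4 members of each genome with the smallest p in each arm, and for the most abundant member per length of each complex and genome; a few others were added after their values were seen, namely mt-Nd3, mt-Nd4l, Ndufa4, Polrmt and Tfam. Of other lists, up to 3 called genes per direction are named, and some results are not reported here.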

Additional observations from a re-analysis of the deposited data

Results flagged for a closer look

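Reads on plasmid entries, which enter none of the comparisons, were found in libraries of other groups above the 3 counts that a count of 0 allows. The mCherry entry held 59 and 11 reads in ZF-SCN9A libraries 1 and 2, against 186301 and 216581 reads in mCherry libraries 1 and 2. The zinc-finger entry held 35 and 14 reads in mCherry libraries 1 and 2, against 246775 and 178465 reads in ZF-SCN9A libraries 1 and 2. The mCherry entry also held 9 reads in dCas9-SCN9A library 1 and 7 reads in dCas9-empty library 1, and 0 in the other dCas9 libraries. Their part in the values of the respiratory chain genes was not tested.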

How the results depend on the processing

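The number of genes called with dCas9-SCN9A, 6, was 172 without a filter on low counts, 13 on 1 strand's counts, 3 after the exon length correction, 29 in a fit of all 10 libraries, 28 by DESeq2, and 1 to 34 when 1 library was left out. With ZF-SCN9A the 609 calls became 283 on 1 strand's counts, 348 in a fit of all 10 libraries, 128 by DESeq2, and 201 to 787 with 1 library left out. The 143 calls of the difference became 274 without a filter and 71 to 241 with 1 library left out. The cause of these shifts was not tested. The median of the mitochondrial members with dCas9-SCN9A, 0.33, ranged from 0.19 to 0.55 with 1 library left out, and was 0.27 over the 5 members outside the copied stretch, an alternative chosen after seeing the data. The median of the nuclear members with ZF-SCN9A, 0.042, was 0.055 with plain library sizes, 0.023 without a filter, 0.088 on 1 strand's counts, 0.034 in a fit of all 10 libraries, and 0.033 to 0.073 with 1 library left out. For mt-Co3 the adjusted p was 0.402 without dCas9-SCN9A library 3, 0.140 without dCas9-empty library 2, 0.0791 without dCas9-SCN9A library 1 and 0.0731 without dCas9-empty library 1, and 0.00130 without dCas9-SCN9A library 2.

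Replicate numbers are shared between groups, and whether they pair the libraries is unclear. With dCas9, same-numbered deviations correlated at 0.19, 0.41 and 0.08, and differently numbered ones at -0.33 to 0.17. dCas9-SCN9A library 3 correlated best with dCas9-empty library 1, at 0.17. Col3a1 held 76 counts in dCas9-SCN9A library 1 and 67 in dCas9-empty library 1, and 0 or 1 in libraries 2 and 3 of both groups. Col1a2 held 53 and 40 counts in the libraries numbered 1, and 1 or 2 in the rest. What the libraries numbered 1 share was not tested. With the zinc finger same-numbered deviations correlated at 0.10. With 2 libraries per group all such values have the same size, so they cannot decide it. With a replicate block 262 genes were called with dCas9-SCN9A and 354 for the difference, and the nuclear median with ZF-SCN9A was 0.032. Under that block 6 mitochondrial members passed with dCas9-SCN9A: mt-Nd1, mt-Nd2, mt-Co2, mt-Atp8, mt-Co3 and mt-Nd6. Of these, mt-Nd1, mt-Nd2 and mt-Nd6 lie outside the copied stretch. The edgeR adjusted p was 5.07e-08 for mt-Co2, 0.0378 for mt-Atp8 and 0.00831 for mt-Nd1. Of the values of single genes under the alternatives, including those of mt-Co3, mt-Co2, mt-Atp8 and mt-Nd1 above, 589 kept their side of the threshold. Those not called moved by less than 1 SE, and 33 of the 589 had the other sign. A further 36 uncalled values moved by more, 15 of them with the other sign, 12 passed the threshold only under the alternative, 16 lost it and 0 reversed a call. Precision is limited by 2 or 3 libraries per group, and in the zinc-finger arm by counts under 50 for the members inside the copied stretch.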

Other observations

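The 6 mitochondrial members inside the copied stretch stood at different levels in the 2 arms, which also differed in depth and in plasmids. Their summed CPM was 14.1 and 9.53 in ZF-SCN9A libraries and 15.3 and 7.95 in mCherry libraries, against 114, 84.6 and 125 in dCas9-SCN9A libraries and 59.4, 66.8 and 73.5 in dCas9-empty libraries. The 7 chromosome 1 copies summed to 101 and 64.2 CPM in ZF-SCN9A libraries and 94.8 and 72.8 CPM in mCherry libraries, where the dCas9-SCN9A libraries held between 153 and 212 CPM and the dCas9-empty libraries between 102 and 139 CPM. The arms hold no shared group, so this difference cannot be told apart from any other difference between them.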
